A study of Mus musculus with 288 samples.

Results

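Isg15, Usp18, Oas1a, Oas2, Oas3, Oasl1, Oasl2, Mx1, Rtp4 and Bst2 are interferon-induced antiviral genes, and they were followed here through innate immune activation of mouse macrophages pretreated with inhibitors of the kinase CDK8. The 10 genes were chosen by name as rows of the deposited count table, which lists 23481 genes, 14708 of them with at least 1 count in any well. Bone marrow of C57BL/6 mice aged 12 weeks was grown with M-CSF over 7 days into bone marrow-derived macrophages (BMDM), a primary cell culture. The wells received the solvent control DMSO, 100 nM dCA or 1 µM BRD-6989, the inhibitors for 24 h. Wells then had no stimulus (NoStim) or received CpG, FLA, LPS, MDP, MDP_LPS, Pam3cys, Poly(I:C), R848, SeV, TDB or Zymosan, and were collected at 15, 30, 45, 60, 90, 120, 150 and 180 min. The series text gives another time range, and the times used here are those of the samples' own labels. Each combination of pretreatment, stimulus and time was 1 well. Each of the 3 pretreatments filled a plate of 96 wells with its own library index, so that inhibitor and plate cannot be told apart. The labels name no separate cultures or animals, so every p-value below measures the spread between these wells, or between libraries summed from them. Levels are counts of unique molecular identifiers (UMI, random barcodes that mark single RNA molecules) per 1000000 UMI without the ribosomal RNA precursor Rn45s, written CPM.

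Type I interferon binds its receptor on the cell surface and activates the kinases JAK1 and TYK2. A transcription factor complex then forms and binds the interferon-stimulated response element (ISRE) in the promoters of antiviral genes. In macrophages the interferon itself is made after TLR4 or TLR3 signals through the adaptor TRIF, or after RIG-I-like receptors sense viral RNA. LPS is sensed by TLR4, Poly(I:C) is a synthetic double-stranded RNA, and SeV is the usual abbreviation of Sendai virus. LPS, MDP_LPS, Poly(I:C) and SeV are therefore called the interferon-route stimuli below. Isg15 encodes a ubiquitin-like protein that is joined to other proteins, and Usp18 encodes the protease that removes it and also dampens interferon receptor signalling. The OAS proteins sense double-stranded RNA and make 2'-5' linked oligoadenylates, which act as an antiviral signal. Mx1 belongs to the family of dynamin-like GTPases, and Bst2, or tetherin, holds budding virions at the cell surface.

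The promoters are shown because the ISRE core is the known binding sequence of the complex described above. RefSeq promoter windows of GRCm38.p6, from 250 bases before to 50 bases after a transcript start of each gene, were given for 6 of the 10 genes. The core, which reads GAAA, any pair of bases (NN) and GAAA, searched on both strands, was found in 4 of the 6, namely Isg15, Oas3, Oas1a and Bst2, and in 1131 of 32851 windows of the same length (3.44%). The windows of Oasl1 and Oasl2 held no such letters. The 150 bases before that start are printed 5' to 3' on the minus strand of the genome, which is the coding strand of all 4 genes, with every core match in capitals. Positions are counted from that start, which for Oas3 and Oas1a lies inside the outermost bounds of the gene given below, so that the last bases printed for these genes fall within those bounds. In Isg15 3 overlapping matches began 78, 72 and 66 bases before the start.
Isg15 (chr4:156200819-156200968): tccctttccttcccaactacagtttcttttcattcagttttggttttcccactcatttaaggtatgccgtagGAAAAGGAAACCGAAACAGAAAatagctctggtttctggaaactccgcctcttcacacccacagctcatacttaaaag
Oas3 (chr5:120777660-120777809): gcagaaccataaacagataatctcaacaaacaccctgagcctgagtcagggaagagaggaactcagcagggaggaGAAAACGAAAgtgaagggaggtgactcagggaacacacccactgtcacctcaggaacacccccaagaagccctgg
Oas1a (chr5:120907526-120907675): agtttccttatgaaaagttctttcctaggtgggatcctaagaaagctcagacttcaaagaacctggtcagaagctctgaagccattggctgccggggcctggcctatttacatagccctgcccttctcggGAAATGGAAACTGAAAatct
Bst2 (chr8:71537473-71537622): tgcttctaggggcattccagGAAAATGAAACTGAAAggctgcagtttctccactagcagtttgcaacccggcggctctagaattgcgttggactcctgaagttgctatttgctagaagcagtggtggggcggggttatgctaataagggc
In Oas3 the match began 75 bases before the start its window is built on, in Oas1a 20 and 14 bases, and in Bst2 130 and 124 bases. The NF-kB type site GGGANTTCC was found in 0 of the 6 windows and in 1.68% of all. A match describes letters and is not a measured binding site. Oasl2 (chromosome 5, 114896926 to 114912245), Oasl1 (114923143 to 114937911), Oas2 (120730333 to 120749886), Oas3 (120753098 to 120777684) and Oas1a (120896256 to 120907544) lie on chromosome 5. Isg15 lies on chromosome 4 (156199424 to 156200818), Usp18 on 6 (121245906 to 121270917), Bst2 on 8 (71534255 to 71537472), and Rtp4 (23520219 to 23614222) and Mx1 (97447035 to 97462906) on 16.

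Wells held 21810 to 70797 UMI without Rn45s, so that 1 UMI in a well of median depth was worth 27.6 CPM for DMSO, 26.9 for dCA and 22.7 for BRD-6989. The 8 times of a pretreatment and stimulus were therefore summed into 36 libraries of 227325 to 449471 UMI. Rn45s took 52.7% ± 6.88 of all UMI on the DMSO plate, 49.0% ± 7.04 on that of dCA and 43.6% ± 6.75 on that of BRD-6989 (mean ± SD over 96 wells). All 10 macrophage markers in the table had UMI. Their summed level was 6077 to 8709 CPM in the 12 DMSO libraries (median 6663), 5390 to 7733 in dCA (median 5981) and 5473 to 7304 in BRD-6989 (median 5825). Of the 7 neutrophil markers in the table, 6 had UMI. Their summed level was 15.3 to 57.2 CPM in DMSO, 0 to 13.3 in dCA and 0 to 9.15 in BRD-6989. The lower macrophage medians, the shift of the neutrophil markers and that of Rn45s ran with the pretreatments. The part of the macrophage and neutrophil markers in the results below was not tested. A fit with the Rn45s share as a covariate is given beside these results. Bst2 also marks plasmacytoid dendritic cells, of whose 6 markers Klk1 and Ly6d were at 0 UMI in every well. Siglech had 14 UMI over all wells, Ccr9 37, Cox6a2 82 and Tcf4 5020. The summed level of the 6 was 286 to 462 CPM in the DMSO libraries (median 369), 319 to 649 in dCA (median 464) and 331 to 649 in BRD-6989 (median 467), and its part in the Bst2 values was not tested.

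Under dCA 4 of the 10 genes fell (Isg15, Usp18, Oasl1 and Mx1) and 0 rose, where 9.35% of all 5691 genes tested fell. Under BRD-6989 8 of the 10 fell, namely Isg15, Usp18, Oas1a, Oas3, Oasl1, Oasl2, Mx1 and Bst2, and 0 rose, where 11.9% of all genes fell. The median log2 change of the 10 genes was -0.20 under dCA and -1.02 under BRD-6989, against -0.01 and 0.00 over all genes tested. Changes are log2 values ± SE from edgeR's quasi-likelihood test over the 12 conditions (NoStim and 11 stimuli), with the condition as a block and an adjusted p of 0.05 as the threshold. Both comparisons share the DMSO plate. In these bulk wells fewer responding cells and less RNA per cell cannot be told apart.

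Both genes of the ISG15 system fell under both inhibitors. Isg15 ran from 116 to 501 CPM over the 12 DMSO libraries (median 214), from 35.8 to 307 in dCA (median 116) and from 36.02 to 267 in BRD-6989 (median 80.3). The ranges overlapped, but within a condition the level was below DMSO in 12 of 12 conditions under either inhibitor. The change was -0.84 ± 0.16 under dCA (adjusted p = 3.65e-05) and -1.06 ± 0.16 under BRD-6989 (adjusted p = 1.93e-07). Usp18 ran from 61.2 to 277 CPM in DMSO (median 108), from 9.40 to 183 in dCA (median 61.9) and from 15.4 to 92.7 in BRD-6989 (median 50.3). It was lower than DMSO in 10 of 12 conditions under dCA and in 11 of 12 under BRD-6989. Its change was -0.88 ± 0.20 (adjusted p = 0.000659) and -1.24 ± 0.20 (adjusted p = 1.74e-06). Gene models without a count of their own overlap Isg15 (Gm46878) and Usp18 (Gm44148), and the sources used here do not say whether counting used the strand.

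Within the OAS family Oas1a, Oas3, Oasl1 and Oasl2 fell under BRD-6989 and Oasl1 under dCA. Oas1a, a synthetase that makes oligoadenylates, ran from 165 to 427 CPM in DMSO (median 292), from 129 to 379 in dCA (median 209) and from 49.6 to 253 in BRD-6989 (median 138). BRD-6989 was the lower in 12 of 12 conditions, a change of -1.01 ± 0.13 (adjusted p = 3.73e-09), while the change under dCA was -0.13 ± 0.12 (adjusted p = 0.534). Oas1a and its neighbour Oas1g are near-identical copies, and reads could be split between them. Oas3, the largest of the synthetases, ran from 35.2 to 104 CPM in DMSO (median 75.6), 18.9 to 95.5 in dCA (median 71.99) and 11.9 to 76.0 in BRD-6989 (median 31.7). Its change was -0.99 ± 0.25 under BRD-6989 (adjusted p = 0.0015) and -0.11 ± 0.23 under dCA (adjusted p = 0.813). Oas2, the middle-sized synthetase, passed the test under neither inhibitor, at 0.13 ± 0.25 for dCA (adjusted p = 0.797) and -0.65 ± 0.27 for BRD-6989 (adjusted p = 0.0739). Its medians were 44.9 CPM for DMSO, 49.9 for dCA and 26.6 for BRD-6989, with highest libraries of 77.5, 96.7 and 51.2.

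Oasl1 and Oasl2 are OAS-like proteins with ubiquitin-like ends, and Oasl1 is known in mice as a brake on translation of Irf7. Oasl1 ran from 50.5 to 514 CPM in DMSO (median 125), from 27.8 to 396 in dCA (median 72.3) and from 12.0 to 251 in BRD-6989 (median 33.1). It was below DMSO in 11 of 12 conditions under dCA and in 12 of 12 under BRD-6989, with changes of -0.63 ± 0.16 (adjusted p = 0.00238) and -1.46 ± 0.17 (adjusted p = 3.32e-10). Oasl2 ran from 134 to 252 CPM in DMSO (median 199.8), 84.9 to 274 in dCA (median 146) and 54.9 to 172 in BRD-6989 (median 83.6). It fell by 1.02 ± 0.15 on the log2 scale under BRD-6989 (adjusted p = 2.33e-07), with 12 of 12 conditions below DMSO. Under dCA its change was -0.27 ± 0.14 (adjusted p = 0.205, lower in 9 of 12).

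Among the remaining genes Mx1 fell under both inhibitors, Bst2 under BRD-6989, and Rtp4 under neither. Mx1 spread widely, from 32.5 to 491 CPM in DMSO (median 98.6), 3.82 to 253 in dCA (median 74.8) and 8.93 to 276 in BRD-6989 (median 63.4). Its change was -0.80 ± 0.16 under dCA (adjusted p = 0.000141) and -1.04 ± 0.16 under BRD-6989 (adjusted p = 6.39e-07), each lower than DMSO in 10 of 12 conditions. Bst2 had a narrow range, from 172 to 317 CPM in DMSO (median 265), 179 to 326 in dCA (median 259) and 134 to 225 in BRD-6989 (median 170.2). It fell under BRD-6989 by 0.54 ± 0.12 on the log2 scale (adjusted p = 0.000343), with 11 of 12 conditions below DMSO, and its change under dCA was 0.05 ± 0.12 (adjusted p = 0.83). Rtp4, a receptor transporter protein with antiviral action, ran from 50.5 to 211 CPM in DMSO (median 156), 70.2 to 284 in dCA (median 154) and 33.5 to 295 in BRD-6989 (median 94.6). Its changes were 0.10 ± 0.18 under dCA (adjusted p = 0.784) and -0.39 ± 0.18 under BRD-6989 (adjusted p = 0.121). The BRD-6989 value of Rtp4 passed the test without LPS (-0.56, adjusted p = 0.0229) or without MDP_LPS (-0.53, adjusted p = 0.0405).

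**Figure D1:**
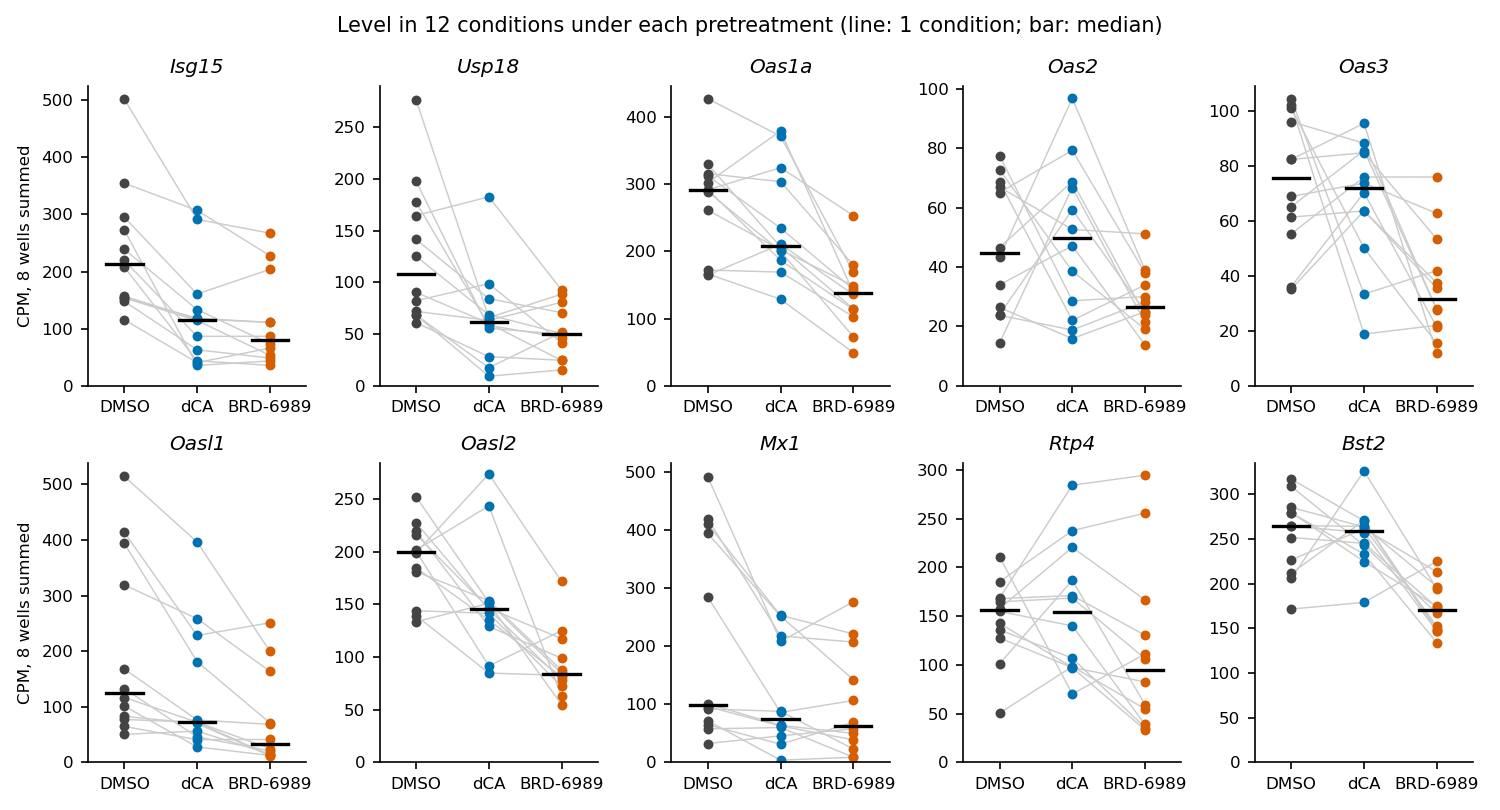
Level of each of the 10 genes in CPM (y axis) in the 12 conditions of each pretreatment (x axis); a point is 1 condition with its 8 wells summed, grey lines join the same condition, and bars are medians. The ranges of the pretreatments overlap for every gene, while most lines of Isg15, Oas1a, Oasl1 and Oasl2 run down from DMSO to BRD-6989.

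Set against each other, the inhibitors left 5 of the 10 genes higher in dCA than in BRD-6989 and 0 lower, where 2.74% of all genes were higher and 1.62% lower. Those were Oas1a at 0.88 ± 0.13 (adjusted p = 2.82e-06), Oas3 at 0.89 ± 0.25 (adjusted p = 0.0283), Oasl1 at 0.83 ± 0.19 (adjusted p = 0.00336), Oasl2 at 0.76 ± 0.16 (adjusted p = 0.0014) and Bst2 at 0.59 ± 0.12 (adjusted p = 0.000779). Oas1a was higher in dCA in 12 of 12 conditions, Oasl2 and Bst2 in 11, Oasl1 in 10 and Oas3 in 9. The genes of the ISG15 system and Mx1 did not pass, at 0.21 ± 0.18 for Isg15, 0.36 ± 0.23 for Usp18 and 0.24 ± 0.18 for Mx1 (adjusted p = 0.581, 0.448 and 0.543), which does not show equal levels. Oas2 and Rtp4 had values of 0.77 ± 0.27 and 0.48 ± 0.18 (adjusted p = 0.0842 and 0.124). The median of the 10 genes was 0.67, against 0.00 over all genes. The doses differed (100 nM and 1 µM), so the contrast holds for these doses and plates. The Oas3 call ended when FLA, MDP, R848, TDB or Zymosan was left out, with adjusted p-values of 0.0537 to 0.0908.

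**Figure D2:**
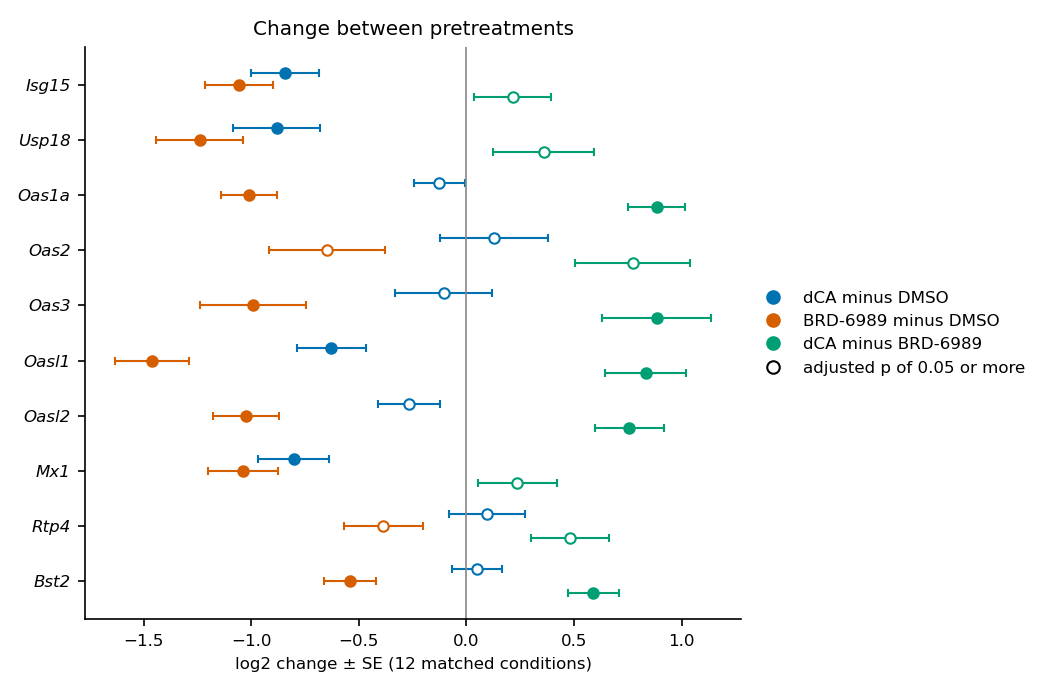
Log2 change ± SE (x axis) of each gene (y axis) between pretreatments over the 12 matched conditions; filled points have an adjusted p under 0.05. Isg15, Usp18, Oasl1 and Mx1 have filled points left of 0 for both inhibitors, and Oas1a, Oas3, Oasl1, Oasl2 and Bst2 carry the filled points of dCA minus BRD-6989.

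The calls of the dCA comparison depended on matching the conditions. Without the block 1 of its 4 calls was left, Usp18 at -0.87 (adjusted p = 0.0323), while Isg15 kept a value of -0.82 (adjusted p = 0.0614), Mx1 -0.81 (adjusted p = 0.219) and Oasl1 -0.61 (adjusted p = 0.375). Without it Mx1 also lost its BRD-6989 call at -1.02 (adjusted p = 0.0851), and Oasl1 and Oas3 lost theirs in dCA minus BRD-6989 at 0.79 and 0.88 (adjusted p = 0.459 and 0.0579). With each library's Rn45s share as a covariate, 2 of the 8 BRD-6989 calls were left, where the calls over all genes went from 1348 to 228. They were Oas1a at -1.27 (adjusted p = 0.0032) and Oasl1 at -1.42 (adjusted p = 0.0104). In that fit Isg15, Mx1, Usp18, Oas3 and Bst2 had values of -1.04, -1.03, -0.97, -0.90 and -0.77, and Oasl2 moved from -1.02 to -0.42. Under dCA Isg15 at -0.83 (adjusted p = 0.00287) and Mx1 at -0.80 (adjusted p = 0.00829) passed with the covariate, and Usp18 at -0.76 and Oasl1 at -0.61 did not (adjusted p = 0.0765 and 0.0649). In dCA minus BRD-6989 Oas1a at 1.04 (adjusted p = 0.000725) and Bst2 at 0.73 (adjusted p = 0.0246) passed with it, and Oas3, Oasl1 and Oasl2 did not.

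The test of the late-minus-early difference called 0 of the 10 genes for either inhibitor by edgeR, with 2 at an unadjusted p of 0.05 for each. In the early wells (15, 30 and 45 min, summed into a library per condition) 8 of the 10 genes were lower under BRD-6989, where 5.69% of all genes were, and in the late wells (120, 150 and 180 min) 6 were, where 5.34% of all genes were. Early values included -1.92 ± 0.39 for Usp18 (adjusted p = 0.000222), -1.92 ± 0.38 for Oasl1 (adjusted p = 0.00016), -1.57 ± 0.29 for Isg15 (adjusted p = 5.43e-05) and -0.82 ± 0.19 for Bst2 (adjusted p = 0.00169). The late values of these genes were -1.17 ± 0.26, -1.29 ± 0.22, -0.86 ± 0.20 and -0.46 ± 0.19, of which the value of Bst2 did not pass (adjusted p = 0.102). Under dCA 2 genes passed in the early wells (3.32% of all genes lower), Isg15 at -1.15 ± 0.28 and Mx1 at -1.12 ± 0.37 (adjusted p = 0.00377 and 0.0473). In the late wells 4 passed under dCA (4.29% of all genes lower), namely Isg15 at -0.76 ± 0.20, Usp18 at -1.18 ± 0.28, Mx1 at -0.79 ± 0.17 and Oasl2 at -0.70 ± 0.22 (adjusted p = 0.0087, 0.00205, 0.00104 and 0.0325). These early and late sums were added after the data had been seen.

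Rtp4 was the gene whose BRD-6989 value moved most between early and late wells among the 10, and it was singled out after its values were seen. In the early wells it ran from 31.0 to 206 CPM over the 12 DMSO conditions (median 148), from 35.9 to 196 in dCA (median 100.1) and from 8.60 to 109 in BRD-6989 (median 48.3). BRD-6989 was below DMSO in 11 of 12 conditions there, a change of -1.43 ± 0.30 (adjusted p = 0.000364). In the late wells it ran from 74.6 to 291 CPM in DMSO (median 183), 96.8 to 486 in dCA (median 162) and 45.1 to 568 in BRD-6989 (median 159). BRD-6989 was below DMSO in 7 of 12 conditions there, and the change was 0.06 ± 0.22 (adjusted p = 0.911). The late-minus-early difference was 1.4999 ± 0.374 for BRD-6989 (adjusted p = 0.235, unadjusted p = 0.000134) and 0.71 ± 0.35 for dCA (adjusted p = 0.645). It did not pass, and 0 of the 5691 genes did in either comparison by edgeR, so a shift of the effect with time was not shown for any of the 10 genes.

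**Figure D3:**
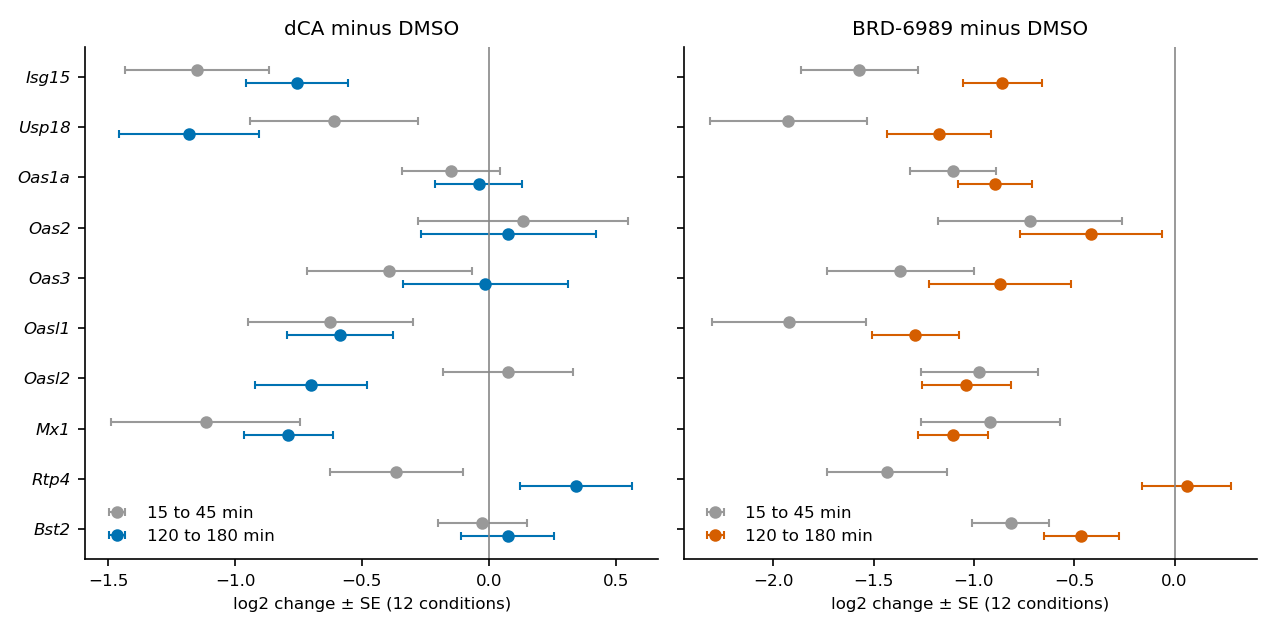
Log2 change ± SE (x axis) of each gene (y axis) against DMSO over the 12 conditions, in early wells (grey) and late wells (colour), for dCA (left) and BRD-6989 (right). The early and late values of Rtp4 under BRD-6989 lie at -1.43 and 0.06, and the late-minus-early difference had an adjusted p of 0.235.

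Transcripts of the 10 genes were also counted in unstimulated wells. The summed level of the 10 genes in the 8 NoStim wells was 1537 ± 280 CPM in DMSO (mean ± SD, 1127 to 2064), 1238 ± 462 in dCA (537 to 1863) and 630.3 ± 229 in BRD-6989 (198 to 935). The BRD-6989 wells all lay below the DMSO wells, while the dCA wells overlapped both. Bst2 was above 0 in each of the 24 NoStim wells, with medians of 289, 223 and 159.7 CPM for DMSO, dCA and BRD-6989. Mx1 was at 0 in 3 of 8 DMSO wells, 5 of 8 dCA wells and 5 of 8 BRD-6989 wells, and Oasl1 in 3, 3 and 6. No gene of the 10 passed edgeR's test in NoStim wells, where 0.126% of all 9511 genes tested were lower under BRD-6989 and 0.105% under dCA. At an unadjusted p of 0.05 7 of the 10 were lower under BRD-6989 and 1 under dCA, and limma-voom also called 0. Under BRD-6989 1 gene passed once the Rn45s share was a covariate.

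In DMSO the summed level of the 10 genes over the 4 interferon-route stimuli was 1604 CPM at 15 min, 1966 at 90 min, 3174 at 120 min, 3933 at 150 min and 4816 at 180 min. The 1 unstimulated DMSO well of 180 min held 2064 CPM, of which Oasl2 made up 784. It was the highest of the 8 unstimulated DMSO wells (1127 to 2064, mean 1537). The inhibitor plates stood at 1307 CPM in dCA and 601 in BRD-6989 at 15 min and 3952 and 2849 at 180 min. Late minus early, within the DMSO plate, passed edgeR's test for 0 of the 10 genes (3 at an unadjusted p of 0.05, 0 by limma-voom), where 0.0105% of all genes were higher. Zymosan, a yeast cell wall preparation that was not counted among the interferon-route stimuli, reached 5152 CPM for DMSO, 3310 for dCA and 3281 for BRD-6989 at 180 min, each from 1 well. The 6 other stimuli together stood at 1408 CPM over the late DMSO wells, and NoStim at 1628.

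**Figure D4:**
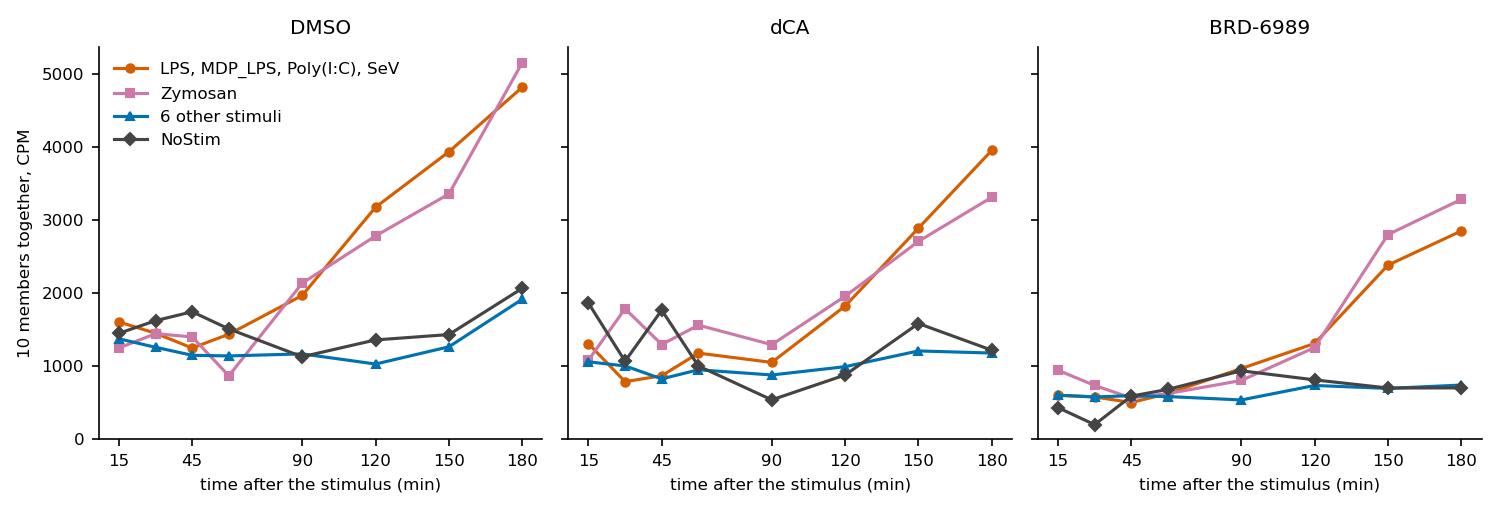
Summed level of the 10 genes in CPM (y axis) against minutes after the stimulus (x axis) for each pretreatment; the interferon-route stimuli are 4 wells per point, the 6 other stimuli 6 wells, and NoStim and Zymosan 1 well each, with no error bar. The curves of the interferon-route stimuli and Zymosan lie above the others at every time after 90 min in all 3 panels. In DMSO they are already above at 90 min, at 1966 and 2134 CPM against 1166 (6 other stimuli) and 1127 (NoStim). In dCA they stand at 1049 and 1293 CPM at 90 min, against 877 and 537. In BRD-6989 they stand at 966 and 802 CPM at 90 min, against 535 and 935.

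Mx1 and Oasl1 were the genes that passed with more than 1 stimulus in DMSO. There Mx1 stood at 57.8, 27.0 and 131 CPM in the NoStim wells of 120, 150 and 180 min. It stood at 663, 1414 and 498 CPM with LPS, at 739, 795 and 1424 with MDP_LPS, at 618, 1155 and 1209 with Poly(I:C), and at 215, 713 and 639 with SeV. Every well of these stimuli was above every NoStim well. Zymosan wells also stood apart, at 702.8, 610.1 and 1618 CPM. With the other stimuli Mx1 had late levels of 32.9 CPM (TDB), 37.3 (MDP), 142 (CpG), 148 (Pam3cys), 159 (FLA) and 211 (R848). Oasl1 stood at 318, 0 and 52.3 CPM in the NoStim wells and at 663, 987 and 885 with LPS, 739, 1283 and 738 with MDP_LPS, and 571, 1087 and 1382 with Poly(I:C). With SeV it held 35.9, 252 and 278 CPM and overlapped NoStim. Against NoStim, Mx1 rose with LPS (3.46 ± 0.84, adjusted p = 0.0157), MDP_LPS (3.76 ± 0.81, adjusted p = 0.00224), Poly(I:C) (3.76 ± 0.81, adjusted p = 0.00426) and Zymosan (3.73 ± 0.82, adjusted p = 0.00624). Oasl1 rose with LPS (2.78 ± 0.71, adjusted p = 0.0279), MDP_LPS (2.97 ± 0.69, adjusted p = 0.00701) and Poly(I:C) (3.10 ± 0.68, adjusted p = 0.00617). Usp18 rose with MDP_LPS (3.78 ± 0.95, adjusted p = 0.0186). Its late NoStim wells stood at 0, 108 and 0 CPM, so that value rests on 4 NoStim UMI from the 150 min well. None of the 10 passed with the other 7 stimuli in DMSO. In these contrasts 0.452% of all genes were higher with LPS, 0.505% with MDP_LPS, 0.189% with Poly(I:C) and 0.242% with Zymosan. With the other 7 stimuli the share was 0.189% for Pam3cys, 0.179% for R848, 0.0736% for FLA, 0.0631% for CpG, 0.0315% for SeV and 0 for MDP and TDB. Left without the wells of 150 min, the DMSO contrasts called none of the 10 genes, and without those of 180 min 1.

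On the inhibitor plates 1 stimulus gave calls in dCA and 3 in BRD-6989, and whether the responses differed between plates was not tested. In dCA the genes that passed were Isg15 (3.28 ± 0.80, adjusted p = 0.0128) and Oasl1 (2.87 ± 0.67, adjusted p = 0.00762), both with MDP_LPS, where 0.620% of all genes were higher. Leaving out the wells of 120, 150 or 180 min ended both calls. In BRD-6989 Mx1 and Oasl1 passed with LPS, MDP_LPS and Zymosan and Rtp4 with LPS and MDP_LPS, where 0.768%, 0.936% and 0.694% of all genes were higher with LPS, MDP_LPS and Zymosan. The Mx1 and Oasl1 values rest on 2 NoStim UMI each. As ratios of CPM with exact 95% intervals for counting error, Mx1 was 31.5 times NoStim with LPS (8.41 to 265), 41.6 with MDP_LPS (11.2 to 348) and 33.7 with Zymosan (8.96 to 285). Oasl1 was 35.8 times NoStim with LPS (9.60 to 300.4), 30.002 with MDP_LPS (8.02 to 252) and 24.1 with Zymosan (6.30 to 205). Rtp4 in BRD-6989 stood at 92.6, 80.7 and 21.2 CPM in the late NoStim wells and at 431, 394 and 807 with LPS, a change of 3.18 ± 0.73 (adjusted p = 0.00449), and of 2.73 ± 0.76 with MDP_LPS (adjusted p = 0.0443). In DMSO Rtp4 stood at 86.7, 216 and 261 CPM without a stimulus and at 314, 329 and 27.7 with LPS, a change of 0.13 ± 0.77 (adjusted p = 1).

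**Figure D5:**
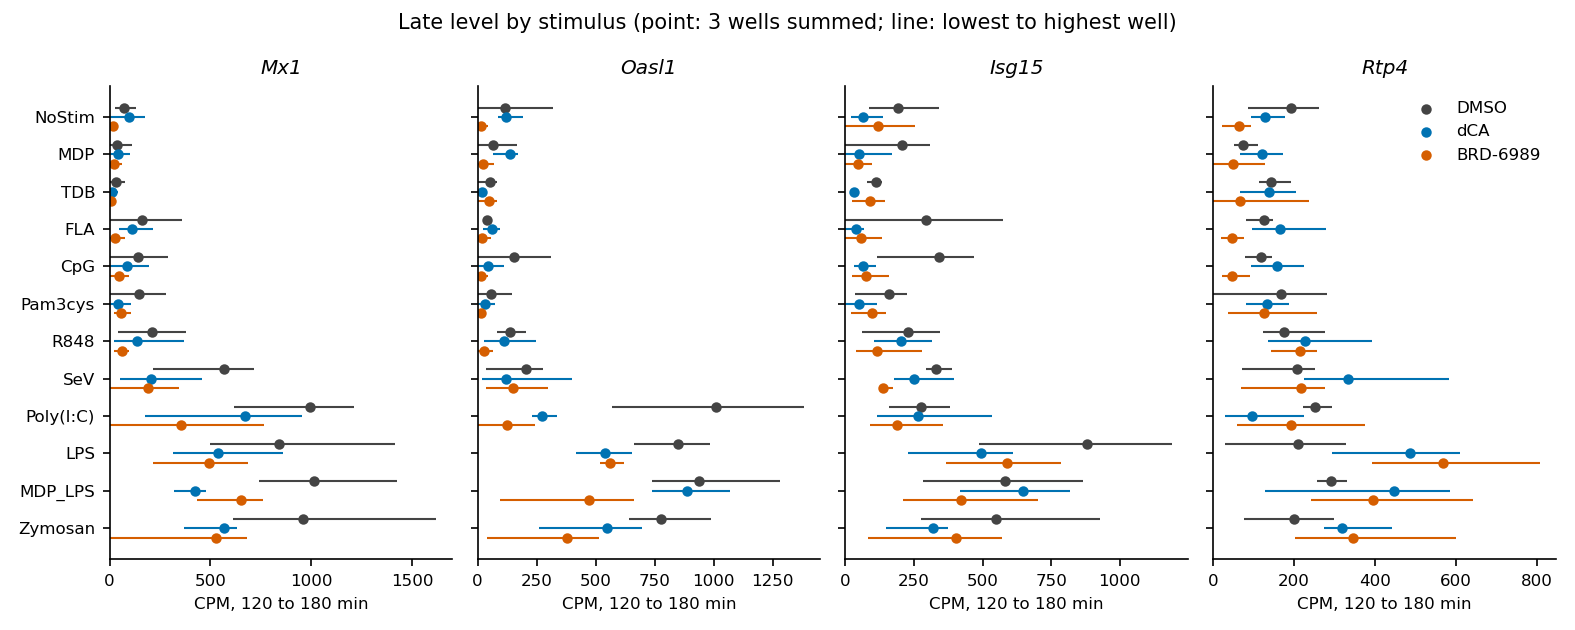
Late level in CPM (x axis) of Mx1, Oasl1, Isg15 and Rtp4 for each stimulus (y axis) and pretreatment (colour); a point is the sum of the 3 wells of 120 to 180 min and the line runs from the lowest to the highest well. Mx1 and Oasl1 separate LPS, MDP_LPS, Poly(I:C) and Zymosan from NoStim in DMSO, and Rtp4 with LPS reaches 210 CPM for DMSO, 486 for dCA and 568 for BRD-6989.

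Taken over the 3 plates, most of the 10 genes were higher with the interferon-route stimuli. In the late wells, summed into 36 libraries with the pretreatment as a block, 8 of the 10 were higher with these 4 stimuli than in the 8 other conditions, where 1.86% of all 5691 genes were higher. Oasl1 had the value of 2.10 ± 0.36 (adjusted p = 0.000121), Mx1 2.005 ± 0.337 (adjusted p = 0.000115), Isg15 1.49 ± 0.26 (adjusted p = 0.000191), Rtp4 1.14 ± 0.23 (adjusted p = 0.00112) and Oas1a 1.01 ± 0.19 (adjusted p = 0.000443). Each of these passed with any condition or late time left out. Oas2 at 1.22 ± 0.29 (adjusted p = 0.00875), Usp18 at 1.05 ± 0.30 (adjusted p = 0.0475) and Oasl2 at 0.83 ± 0.21 (adjusted p = 0.0207) passed as well. Their calls ended in 3, 10 and 4 of the 15 fits that left out a condition or a time, among them those without 180 min for Oas2 and Oasl2 (adjusted p = 0.0942 and 0.503) and without MDP_LPS for Usp18 (adjusted p = 0.423). Oas3 at 0.56 ± 0.28 (adjusted p = 0.465) and Bst2 at 0.18 ± 0.15 (adjusted p = 0.727) did not pass. The median of the 10 genes was 1.10, against -0.02 over all genes. This contrast was added after the data had been seen, and the 8 other conditions include Zymosan.

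Within the DMSO plate alone the mean of the 4 interferon-route stimuli minus NoStim passed for Mx1 at 3.46 ± 0.74 (adjusted p = 0.00263) and Oasl1 at 2.40 ± 0.63 (adjusted p = 0.0398), where 0.326% of all 9511 genes were higher. The Mx1 call ended without the wells of 150 min (2.89, adjusted p = 0.163). The Oasl1 call ended without those of 150 or 180 min or without LPS, MDP_LPS or Poly(I:C), with values of 1.66 to 2.28 (adjusted p = 0.112 to 0.506). The mean of the 7 other stimuli changed none of the 10 past the threshold, 0 at an unadjusted p of 0.05, and limma-voom called 0, where 0.105% of all genes were higher.

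In the late wells of the 4 interferon-route stimuli 3 of the 10 genes were lower under BRD-6989, where 0.357% of all genes were, namely Oas1a at -1.04 ± 0.26 (adjusted p = 0.0124), Oasl1 at -1.18 ± 0.32 (adjusted p = 0.0285) and Oasl2 at -1.32 ± 0.38 (adjusted p = 0.0495). Late Oas1a wells with Poly(I:C) stood at 594, 544 and 938 CPM in DMSO and at 136, 198 and 393 in BRD-6989, with no overlap. With MDP_LPS they stood at 634, 590.1 and 712 CPM in DMSO and at 168, 293 and 451 in BRD-6989, again with no overlap. The Oas1a wells with LPS and with SeV did not overlap either. Oasl1 wells were apart with LPS, MDP_LPS and Poly(I:C). With SeV they overlapped, at 35.9, 252 and 278 CPM in DMSO and 34.8, 96.2 and 299 in BRD-6989. How many of all genes were apart in this way was not counted. The 3 calls were not stable. Oas1a passed in 2 of the 7 fits that left out 1 of these stimuli or late times, Oasl1 in 3 and Oasl2 in 0, with values of -1.24 to -0.78, -1.62 to -0.59 and -1.51 to -0.92. All 3 were lost without the wells of 120 min, without those of 150 min, without MDP_LPS and without Poly(I:C). For dCA 0 of the 10 passed (3 at an unadjusted p of 0.05, 0 by limma-voom), where 0.294% of all genes were lower. Whether the effect of an inhibitor differed between these stimuli and NoStim, or the 8 other conditions, was tested by interaction. There 0 of the 10 genes and 0 of 9511 genes passed for either inhibitor by edgeR, with 0 or 1 of the 10 at an unadjusted p of 0.05. By limma-voom 5 of all genes passed for dCA against NoStim, none of them among the 10.

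Other genes of the pathway fell beside the 10, and 10 of 20 other antiviral effectors were higher in dCA than in BRD-6989, where 2.74% of all genes were. Of these 20, all tested, 10 fell and 2 rose under dCA and 17 fell and 1 rose under BRD-6989, with medians of -0.38 and -0.89. Over all genes tested 9.35% fell under dCA and 11.9% under BRD-6989. Ifit3, which binds viral RNA with Ifit1, had changes of -1.47 ± 0.18 and -2.57 ± 0.20, and the nucleic acid sensor Zbp1 -1.15 ± 0.28 and -1.83 ± 0.29. The exonuclease gene Isg20 fell under BRD-6989 (-1.72 ± 0.32) and the nuclear body gene Sp100 under dCA (-1.25 ± 0.33). Ifitm3, which blocks viral entry, rose under both (0.34 ± 0.06 and 0.27 ± 0.06), and the antibody receptor Trim21 under dCA (0.68 ± 0.20). Of the 3 tested genes of ISG15 conjugation none fell under dCA and 2 under BRD-6989, the enzymes Ube2l6 (-0.76 ± 0.23) and Uba7 (-0.67 ± 0.23). Oas1g, the neighbour of Oas1a, fell by 0.93 ± 0.13 on the log2 scale under BRD-6989.

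Upstream, 4 of 12 tested JAK-STAT and IRF genes fell under dCA and 6 under BRD-6989, and none rose, beside the same 9.35% and 11.9% of all genes that fell. Irf7, the factor that amplifies interferon production, had changes of -0.37 ± 0.13 and -1.79 ± 0.16, and was higher in dCA than in BRD-6989 by 1.42 ± 0.17 (adjusted p = 5.78e-09). Irf8 had -0.74 ± 0.17 and -0.81 ± 0.17. The signalling inhibitor Socs3 (-0.86 ± 0.18) and the kinase Jak1 (-0.46 ± 0.12) fell under dCA, and Irf3, which is activated by the sensors, fell under BRD-6989 (-0.86 ± 0.30). Of 8 tested sensors and adaptors 1 fell under dCA, a share near that over all genes, namely Ddx58, the gene of RIG-I (-0.54 ± 0.16). Under BRD-6989 4 fell, among them Ddx58 (-0.9965 ± 0.162), Dhx58 (-0.74 ± 0.25) and the kinase gene Ikbke (-0.70 ± 0.16). Of 4 tested ligand and receptor genes none fell under dCA and 1 under BRD-6989, Ifngr1 (-0.66 ± 0.17), too few to set against the share over all genes. Ifnb1, the interferon gene itself, had 45 UMI over the DMSO wells, 27 over dCA and 40 over BRD-6989, too few to be tested, and Ifna2, Ifna4 and Ifna5 had 0.

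Reporter constructs of the same route were read in the same wells by TF-seq, in which each construct carries its own tag, and are given as tags per 1000 tags of the summed wells with no test. With the interferon-route stimuli the reporter named ISRE_54 stood at 26.2 in early and 51.5 in late DMSO wells, 24.2 and 39.8 in dCA, and 21.7 and 36.1 in BRD-6989. Late NoStim wells held 28.2, 28.1 and 28.7. The reporter named IFNB1_44 stood at 23.9 and 41.3, 19.4 and 35.1, and 15.3 and 34.6. Both reporters were higher in late than in early wells of these stimuli on every plate, and the late DMSO value was the highest of the 3 plates for both.

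Over the 36 summed libraries the 5 genes of 6577 ranked whose level ran most like the mean of the 10 were Tgtp2 (Pearson r = 0.894), Ifit2 (0.892), Cmpk2 (0.886), Tgtp1 (0.884) and Cxcl10 (0.883). Tgtp1 and Tgtp2 are near-identical copies whose counts could be split. Among the 10 themselves the 45 pairs had a median r of 0.533, from 0.208 for Usp18 and Bst2 to 0.876 for Oasl1 and Mx1. The libraries share plates and stimuli, so these values describe the libraries. Rtp4's annotated span covers Masp1, which had 0 UMI in every well.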

How the data were processed

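RNA of 3 plates of 96 wells was measured by 3' digital gene expression, with TF-seq reporter tags from the same wells. The deposited files hold counts per gene, as UMI and as total reads, and counts per reporter tag. The submitters' processing notes name BWA, edgeR and the build mm10, and the version of each is not given in the sources used here. The deposited table of normalized reporter values held the same numbers as the reporter counts and was not used. No column belonged to another series (0 columns).

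Rn45s was left out of totals. Wells were summed over the 8 times into 36 libraries, normalized by TMM and tested with edgeR 4.0.16 (quasi-likelihood, limma 3.58.1, R 4.3.3) after a filter at a minimum count of 10, which left 5691 genes. The 12 conditions were a block because the same conditions were matched across the plates. Single wells were fitted by pretreatment, stimulus and period, over 9511 genes whose mean was 0.25 UMI per well or more. P-values were adjusted by Benjamini-Hochberg over all genes tested, with a threshold of 0.05. Likeness between genes was measured on log2(CPM + 10), computed from the deposited counts. The fits were tested on simulated data. DESeq2 1.42.0 size factors, limma-voom, other filters, read counts, Rn45s as a covariate and left-out conditions or times were alternatives. Intervals of ratios cover counting error only. Tables and plots were made with Python 3.11.15, numpy 2.4.6, pandas 2.3.3, scipy 1.17.1, matplotlib 3.10.9 and the R package data.table (1.17.8).

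The 10 genes, the pathway lists and the tests were chosen with earlier results of these data known. Beyond the 10 genes, the text names up to 3 genes per pathway list and direction and the 5 genes whose level ran most like theirs. The late-minus-early contrast, the contrast over the 3 plates and the early and late sums were added after the data had been seen. Some items are not reported here.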

Additional observations from a re-analysis of the deposited data

Results flagged for a closer look

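In 6 of 30 groups of 8 NoStim wells, 1 well stood apart from the rest by Dixon's test. Its rate of about 1 in 20 groups holds for normally distributed values. These are low counts, in Oas2 of BRD-6989 with 6 of 8 wells at 0, so the 6 groups cannot be read as an excess over chance. Oas1a in dCA stood at 444 CPM at 150 min, with the nearest other well at 224 CPM. Oas3 in dCA stood at 139 CPM in the same well, with the nearest other at 46.2. Oas2 in BRD-6989 stood at 334 CPM at 90 min, with the nearest other at 63.7. Oasl1 in DMSO stood at 318 CPM at 120 min, with the nearest other at 142. Oasl2 in DMSO stood at 784 CPM at 180 min, with the nearest other at 306. Rtp4 in dCA stood at 384 CPM at 15 min, with the nearest other at 177. The Oasl1 well at 120 min and the Oasl2 well at 180 min are among the 3 late DMSO NoStim wells against which the stimuli were compared.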

How the results depend on the processing

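The directions of the called changes over the 12 conditions held under all alternatives run, and changes that did not pass reversed in a few. With the Rn45s share as a covariate Bst2 under dCA was at -0.0403. In early wells Bst2, Rtp4 and Oasl2 under dCA were at -0.0259, -0.37 and 0.0758, and Mx1 in dCA minus BRD-6989 at -0.20. In late wells Rtp4 under BRD-6989 was at 0.0605 and Usp18 in dCA minus BRD-6989 at -0.0087. On read counts Oas2 and Rtp4 under dCA were at -0.0056 and -0.0282, and from 60 min on Oas3 was at 0.0343. With 1 condition left out Bst2 under dCA ran from -0.0138 to 0.0849, Oas2 from -0.0105 to 0.27 and Oas3 from -0.18 to 0.0370. Without the replicate block 1 of the 10 genes was called under dCA, 7 under BRD-6989 and 3 in dCA minus BRD-6989. With the covariate 2 were called in each, and 1 in BRD-6989 NoStim wells. In dCA minus BRD-6989, early wells gave 2, late wells 1 and wells from 60 min on 2. Early wells gave 2 under dCA. In the late wells of the interferon-route stimuli under BRD-6989, DESeq2 size factors gave 5, wells of 90 to 180 min 5, a mean of at least 1 UMI 5, the covariate 1, no filter 1 and read counts 0. Under dCA wells of 90 to 180 min gave 1 there. Interferon-route stimuli minus NoStim gave 1 with Rn45s kept and 1 with no filter. Single stimuli gave 5 in BRD-6989 on read counts, and in dCA 1 by limma-voom and 0 on read counts. With 1 stimulus or time left out these counts ran from 0 to 2 (BRD-6989, interferon-route), 0 to 2 (DMSO, against NoStim), 3 to 7 (single stimuli, BRD-6989), 0 to 7 (DMSO) and 0 to 0 (dCA). The cause of these changes was not tested. The mean summed NoStim level with Rn45s kept was 718 CPM for DMSO, 593 for dCA and 339 for BRD-6989, and 1252 for DMSO on read counts.

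Counts over all genes moved by more than 1.5 times in these cases. Under dCA 1115 genes became 661 with the covariate, 475 in early and 529 in late wells. Under BRD-6989 1348 became 228, 625 and 646. In dCA minus BRD-6989 248 became 100, 45 and 38, 88 without the replicate block, 155 on read counts and 103 from 60 min on. In NoStim wells limma-voom gave 88 in place of 47 (BRD-6989) and 68 in place of 45 (dCA), and wells of 90 to 180 min 26 and 14. In the interferon-route wells wells of 90 to 180 min gave 184 in place of 108 (BRD-6989) and 109 in place of 72 (dCA), and limma-voom 222 and 113. Against NoStim in DMSO limma-voom gave 115 in place of 57. The other stimuli gave 41 at 1 UMI and 107 on read counts in place of 25. Over the 3 plates 118 became 184 and 216 with Zymosan left out or moved to the interferon-route stimuli. Single stimuli gave 810 in BRD-6989, 550 in DMSO and 705 in dCA by limma-voom, in place of 304, 199 and 245, and 182 in BRD-6989 on read counts. Late minus early in DMSO gave 0 to 16 in place of 1, and the interactions 0 to 5 in place of 0. The Rn45s covariate was not run for the single-stimulus contrasts. Depth limits the single wells, in which several of the 10 genes had 0 UMI.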
